A study of Mus musculus with 12 samples.

Results

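Antisense long noncoding RNAs (lncRNAs) of mouse liver are described here. They comprise the 1865 autosomal entries of a 15558-entry lncRNA table whose identifier marks them as antisense and which lie outside 10 stretches that hold large liver gene clusters. The table holds 1966 antisense entries in all, and 101 were left out: 38 were not autosomal, 61 overlapped 1 of the stretches and 2 were single entries named in the rule. An antisense lncRNA is transcribed from the DNA strand opposite a gene, so its span overlaps that gene or lies within it. Some antisense lncRNAs are known to act on the gene they face, and for most no role is known. Because both transcripts of such a pair come from the same stretch of DNA, a sequencing library that does not keep the strand cannot tell their reads apart where they overlap. The table pairs none of these identifiers with a gene symbol, so members are called by identifier and mm9 position and no function is given for any of them.

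Polyadenylated liver RNA was sequenced after injection of TCPOBOP or PCN into CD-1 mice, which are outbred, at 8 weeks of age. TCPOBOP activates the nuclear receptor CAR and PCN activates the nuclear receptor PXR; both receptors induce drug-metabolising enzymes in hepatocytes, and many liver genes also differ between the sexes in rodents. Nuclear RNA, from nuclei purified through sucrose, was sequenced without strand retention at 3 h: 3 pools of 3, 4 and 4 female livers after TCPOBOP, 3 pools of 4 male livers each after TCPOBOP, and 1 library of 2 male livers after PCN. Whole-tissue RNA of male livers was sequenced at 3 h after TCPOBOP without strand retention, and with strand retention at 6 h and 3 h after TCPOBOP and at 6 h and 3 h after PCN, 1 library of 6 livers each. Every mouse received an agonist, and vehicle-treated libraries were not analysed here, so no value below is a response to an agonist. The labels call each library a pool of livers, while the design text speaks of individual mice. Female nuclear pools, male nuclear TCPOBOP pools and all other libraries carry 3 different experiment codes (G86, G95 and G81), so sex, and compartment or agonist in the nuclear comparisons, cannot be told apart from experiment. Liver markers could not be checked, since the table names no genes.

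Levels are RPKM, the reads per kilobase of counted length and per 1000000 reads, as deposited. Total reads, recovered from the steps of the RPKM values, were 7.31 to 40.3 M (M is 1000000) per library: 22.9 to 32.0 M in the female pools, 7.31 to 11.9 M in the male nuclear TCPOBOP pools and 25.2 to 27.8 M in the stranded libraries. For a counted length of 1 kb, 3 reads amount to 0.0745 RPKM in the deepest library and 0.410 RPKM in male pool 2, and lower values in a library rest on fewer reads. Antisense members took 1.03 to 1.95% of the reads of the 8 unstranded libraries and 0.153 to 0.172% of those of the 4 stranded libraries. Of the 1865 members, 996 to 1124 reached 0.1 RPKM in an unstranded library, against 380 to 464 in a stranded one. At 1 RPKM the counts were 326 to 497 in unstranded and 63 to 70 in stranded libraries. Every unstranded library, the shallower ones included, held more members at each level than any stranded library.

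**Figure D1:**
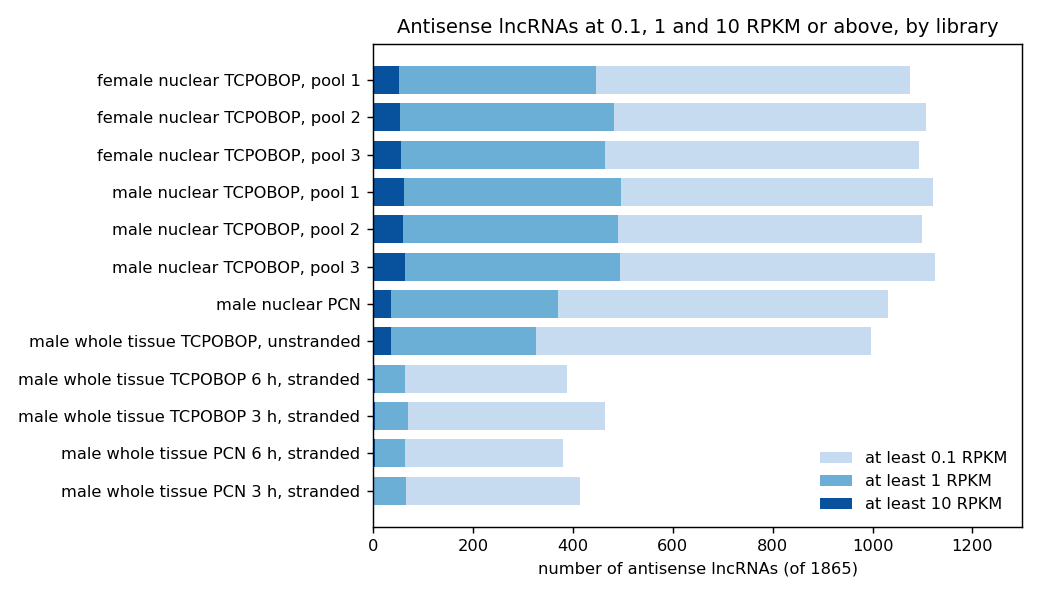
Number of antisense lncRNAs (horizontal axis, of 1865) at or above 0.1, 1 and 10 RPKM in each of the 12 libraries; the bars of the 3 levels are drawn over each other from 0. The 8 unstranded libraries hold 996 to 1124 members at 0.1 RPKM and the 4 stranded libraries 380 to 464.

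Spans of the members ran from 215 to 480070 bases with a median of 4527, and 932 lay on the plus and 933 on the minus strand. Reads were found in at least 1 library for 1705 members, in all 12 libraries for 561, and in none for 160. The counted length that the RPKM steps imply was shorter than the span for 732 members and equal to it for 973. For 62 of the 732 the shorter length rests on only 1 or 2 libraries with reads. Only 80 members overlapped another entry of the table, 71 of them an entry on the opposite strand. Whether each member faces a protein-coding gene, as the class in its identifier says, could not be checked, because the table lists lncRNAs only. Close to the left-out stretches, ncRNA_as_chr15_12769 lay 20063 bases and ncRNA_as_chr12_10847 lay 45246 bases outside. The first of these stayed at 0.403 RPKM or below in all 12 libraries, and the other was among the most abundant members in stranded RNA.

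The labels call 4 whole-tissue libraries strand-specific, but on which strand their reads were counted is not given in the sources used here. In these stranded libraries ncRNA_as_chr7_6166 (chr7:52821222-52830546, minus strand) had the highest mean level. The unstranded libraries gave it 42.8, 29.6 and 34.6 RPKM in female nuclear pools, 36.3, 55.2 and 42.5 RPKM in male nuclear pools, 60.5 RPKM in the nuclear PCN library and 125 RPKM in whole tissue. In stranded RNA it had 65.7 and 77.6 RPKM at 6 h and 3 h after TCPOBOP, and 63.3 and 57.8 RPKM at 6 h and 3 h after PCN. It was thus abundant under both protocols.

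ncRNA_as_chr12_10847 (chr12:104851944-104854754, minus strand) was second in stranded RNA. No read was assigned to it in any of the 8 unstranded libraries, while the stranded ones gave 35.5 and 17.2 RPKM at 6 h and 3 h after TCPOBOP and 29.6 and 31.2 RPKM at 6 h and 3 h after PCN. Set against 3 reads in the unstranded whole-tissue library, its assigned RPKM was at least 650-fold lower there. The stranded library of the same agonist and time, with 25.7 M reads against 40.3 M, was the shallower of the 2. How reads were assigned is not given, so whether the RNA level itself differed was not tested. ncRNA_as_chr19_14977 (chr19:36687082-36764533, minus strand) had 0.289 to 0.534 RPKM in unstranded female pools, 1.14 to 1.33 RPKM in male pools, 0.396 RPKM in the nuclear PCN library and 0.266 RPKM in whole tissue. In stranded RNA it had 11.1 and 13.8 RPKM at 6 h and 3 h after TCPOBOP and 11.4 and 9.83 RPKM at 6 h and 3 h after PCN. Both members were therefore high on the stranded side alone.

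ncRNA_as_chr1_733 (chr1:162964319-162970697, plus strand) had 31.7 to 86.7 RPKM in unstranded libraries. In stranded RNA it had 8.05 and 7.38 RPKM at 6 h and 3 h after TCPOBOP and 10.6 and 9.47 RPKM at 6 h and 3 h after PCN. It was the one member among both the 10 highest in stranded and the 5 highest in unstranded RNA. ncRNA_as_chr8_7375 had 40.5 to 83.1 RPKM in unstranded libraries against 5.82 to 11.6 RPKM in stranded ones, and ncRNA_as_chr1_762 had 7.77 to 13.6 RPKM against 5.58 to 7.15 RPKM. The remaining 4 of the 10 highest were ncRNA_as_chr8_7528 (5.41 to 7.13 RPKM), ncRNA_as_chr1_814 (5.17 to 6.26 RPKM), ncRNA_as_chr3_2936 (2.81 to 7.12 RPKM) and ncRNA_as_chr19_14968 (3.10 to 7.17 RPKM). Of these, ncRNA_as_chr8_7528 and ncRNA_as_chr3_2936 were at 0 in all 8 unstranded libraries. Thus 3 of the 10 members with the highest stranded levels had no reads without strand retention.

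In unstranded RNA the order was different. ncRNA_as_chr16_13146 (chr16:22894578-22898962, minus strand) led with 267, 309 and 270 RPKM in the female nuclear pools, 186, 206 and 173 RPKM in the male nuclear pools, 98.2 RPKM in the nuclear PCN library and 71.5 RPKM in whole tissue. Its stranded levels were 0.0815 to 0.222 RPKM. ncRNA_as_chr7_6048 (chr7:31707653-31729453, plus strand) had 87.6 to 151 RPKM in unstranded and 0.0233 to 0.0684 RPKM in stranded libraries. The corresponding levels were 44.0 to 107 and 0.00578 to 0.0396 RPKM for ncRNA_as_chr6_5635, and 22.9 to 119 and 0.0316 to 0.0896 RPKM for ncRNA_as_chr7_6467. Thus 4 of the 5 members with the highest unstranded means stayed under 0.3 RPKM wherever the strand was kept.

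Unstranded and stranded RNA could be compared directly in whole tissue of male livers 3 h after TCPOBOP, with 1 library each and so no test. Differences are log2(RPKM + 0.1), unstranded minus stranded, for entries of at least 0.5 RPKM in either library. Of 572 such members, 379 (66.3%) were at least 4-fold higher in the unstranded library, against 55.8% of all 1933 entries, and 51 (8.92%) were at least 4-fold lower, against 8.85% of all entries; 142 (24.8%) lay within 4-fold, against 35.4%. The median difference was 2.80 for the members, 3.48 for the 42 left-out antisense entries that reached this level, 2.06 for 1232 intergenic entries, 0.74 for 87 intragenic entries and 2.24 for all entries. The members' median depended on the scale: it was 4.33 and 0.93 with pseudocounts of 0.01 and 1, 1.58 with entries of at least 0.1 RPKM, and 0.74 with the medians of intergenic entries set equal. The unstranded library also gave more reads to intergenic lncRNAs, 2.47% of its reads against 0.595%, a ratio of 4.15, while antisense members took 1.03% against 0.172%, a ratio of 5.97. At least 16-fold higher levels without strand retention were found for 24.8% of these members, 35.7% of left-out antisense entries, 6.90% of intergenic entries and 12.9% of all entries. No reads in the stranded library were found for 176 of the 572 members (30.8%), 57.1% of left-out antisense entries and 24.3% of all entries. The left-out antisense entries, 34 of 42 of them at least 4-fold higher, thus had larger shares than the members on each of these counts. The 2 libraries share sex, agonist, time and experiment code, but whether they hold the same livers is not given.

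Examples run both ways. ncRNA_as_chr6_5635 had 107 RPKM in the unstranded and 0.0283 RPKM in the stranded library, a ratio of 3796. ncRNA_as_chr7_6048 had 140 and 0.0684 RPKM, a ratio of 2048. ncRNA_as_chr3_2954 had 30.3 RPKM in the unstranded library and no reads in the stranded one, which makes it at least 1561-fold higher against 3 reads. In the opposite direction, ncRNA_as_chr8_7528 had no assigned reads in the unstranded library and 5.41 RPKM in the stranded one. Against 3 reads its unstranded value was at least 1366-fold lower, and whether its RNA level differed was not tested. ncRNA_as_chr11_9790 had 0.0228 RPKM unstranded and 2.57 RPKM stranded. These are members at the ends of the distribution, named for that.

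**Figure D2:**
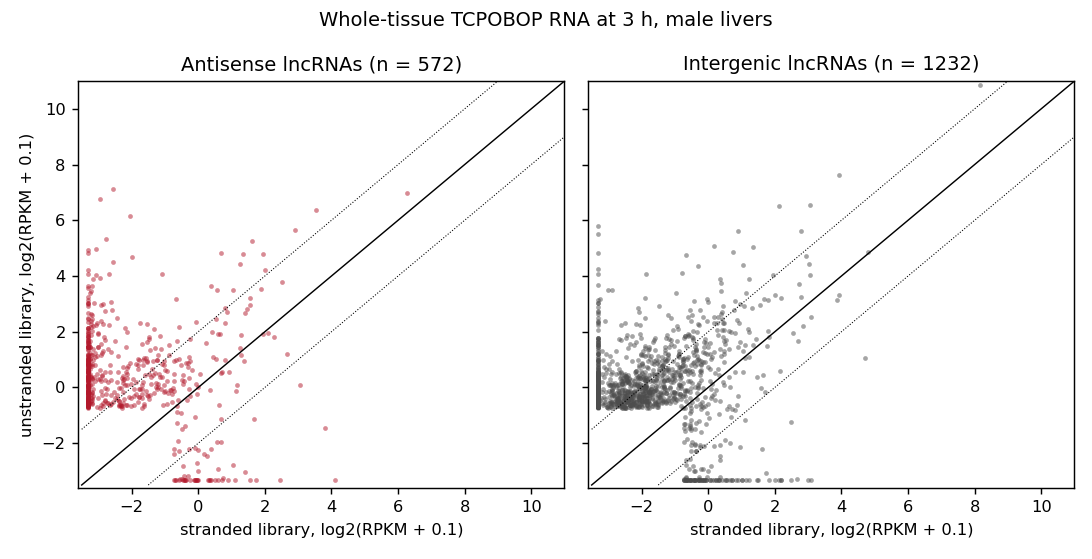
Level in the unstranded library (vertical axis) against the stranded library (horizontal axis) of male whole-tissue RNA 3 h after TCPOBOP, both as log2(RPKM + 0.1), for 572 antisense members (left) and 1232 intergenic lncRNAs (right); each point is 1 lncRNA, the solid line marks equal levels and the dotted lines 4-fold differences. Of the antisense members 379 lie above the upper dotted line, many at the left edge where the stranded library is at or near 0.

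The ranking of members showed the same split. Across the 1408 members of at least 0.1 RPKM in any of the 12 libraries, Spearman's rho between the unstranded and the stranded TCPOBOP whole-tissue libraries was 0.027. It was 0.84 between the stranded TCPOBOP and PCN libraries at 3 h, and 0.94 between the unstranded whole-tissue TCPOBOP and nuclear PCN libraries. For 7749 intergenic entries the first of these values was 0.27. These coefficients run across lncRNAs of the same libraries, share their depth and counted lengths, and are descriptive.

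The counts over all libraries were as follows. At least 0.1 RPKM was reached by 843 members (45.2%) in all 8 unstranded libraries, by 296 (15.9%) in all 4 stranded libraries and by 192 (10.3%) in all 12; for all 15558 entries the shares were 17.9, 7.89 and 4.72%. Of the members at 0.1 RPKM or above in all 8 unstranded libraries, 183 (9.81% of all members) had no reads in any stranded library, a pattern of 2.26% of all entries and 28.7% of left-out antisense entries. A further count, 1 RPKM or above in all 8 unstranded while under 0.1 RPKM in all 4 stranded libraries, gave 160 members (8.58%) and 1.35% of all entries. The reverse patterns were rarer. At least 0.1 RPKM in all 4 stranded libraries and no reads in any unstranded one held for 42 members (2.25%) and 1.27% of all entries, and 1 RPKM or above in all 4 stranded while under 0.1 RPKM in all 8 unstranded libraries for 8 members (0.429%) and 0.174% of all entries. Of those 42, 1 overlapped another entry of the table, against 80 of all 1865 members (4.29%). A counted length equal to the span was found for 35 of the 42, against 973 of the 1705 members with reads. Only 31 members were at 1 RPKM or above in every library, ncRNA_as_chr7_6166, ncRNA_as_chr1_733, ncRNA_as_chr8_7375 and ncRNA_as_chr1_762 among them.

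The difference between protocols was of similar size across spans and counted lengths, with no test made. The median unstranded minus stranded difference was 2.63 for 85 members under 2 kb, 2.91 for 323 of 2 to 10 kb, 2.63 for 133 of 10 to 50 kb and 2.96 for 31 of 50 kb and over. It was 2.65 for 282 members counted over less than their span and 2.99 for 290 counted over all of it. Members without another overlapping entry, 534 of the 572, had a median of 2.80, and the 38 with one had 3.01. Detection by span is given as a description: 24.1% of members under 2 kb and 61.4% of those of 50 kb and over reached 0.1 RPKM in all 8 unstranded libraries, against 12.3% and 12.9% in all 4 stranded libraries. All comparisons between sexes, between compartments and between agonists in nuclear RNA below rest on unstranded libraries. Each may therefore be of the member or of the gene on the other strand, and the 2 cannot be told apart. In whole-liver RNA, fewer cells of a type and less RNA per cell cannot be told apart either.

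Female and male nuclear RNA after TCPOBOP was the one comparison with replicates on both sides, 3 pools each. Of 1136 members with at least 0.1 RPKM in 3 of the 6 pools, 85 differed (7.48%; limma, Benjamini-Hochberg adjusted p under 0.05 over all 5951 entries tested), where 8.79% of all entries did. Of these, 31 were higher in females (2.73%, background 3.92%) and 54 lower (4.75%, background 4.87%). The share of members called was thus close to that of all lncRNAs. The pools of the sexes did not overlap for 386 members (34.0%, background 31.3%), which includes all 85 calls. Log2 differences of the calls ran from 0.62 to 5.70 with a median of 1.34 among those higher in females, and from -2.99 to -0.58 with a median of -1.22 among those lower. Sex goes with experiment code and with depth here, and their part in these calls was not tested. The count fell to 29, 43 and 34 calls without female pool 1, 2 and 3, and to 47 and 51 without male pool 1 and 3; of these, 26, 40, 33, 41 and 41 were among the 85. With the library medians set equal, 83 members were called and the split turned to 47 higher and 36 lower; the median difference, -0.09 for members and for all entries as deposited, became 0.05 for both.

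Among members higher in females, ncRNA_as_chr1_752 (chr1:164884572-164888451, plus strand) differed most. It had 8.15, 16.8 and 6.44 RPKM in the female pools and 0.0724, 0.211 and 0.0217 RPKM in the male pools, and no reads in the other 6 libraries, all male. The means were 10.5 ± 5.56 RPKM in females and 0.102 ± 0.0982 RPKM in males (SD, n = 3 each). The log2 difference was 5.70 (SE 0.44, limma adjusted p 0.000495). The groups did not overlap, and no male library of any kind exceeded 0.211 RPKM. ncRNA_as_chr9_7778 (chr9:23019597-23027643, minus strand) had 12.8, 2.65 and 3.99 RPKM in female and 0.0465, 0.0510 and 0.0836 RPKM in male pools (log2 difference 5.04, SE 0.52, limma adjusted p 0.00186). Female pool 1 stood well above the other female pools, yet all 3 were above every male pool.

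ncRNA_as_chr7_6007 (chr7:27089230-27099814, minus strand) had 2.07, 2.21 and 1.41 RPKM in female and 0.0113, 0.0827 and 0 RPKM in male pools (log2 difference 3.95, SE 0.32, limma adjusted p 0.000568). Elsewhere it stayed at 0.00868 RPKM or below. A second member, ncRNA_as_chr7_5999, ends 94169 bases before it and also rose in female nuclear RNA, to 19.9, 19.9 and 19.6 RPKM in female pools against 9.69, 10.4 and 8.93 RPKM in male pools (log2 difference 1.03, SE 0.14, limma adjusted p 0.00499).

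A pair of neighbours on chromosome 4 had the highest levels among the members named for sex. ncRNA_as_chr4_3313 (chr4:63017500-63017946, minus strand) had 91.8, 67.7 and 70.0 RPKM in female pools and 6.07, 6.42 and 8.46 RPKM in male pools. ncRNA_as_chr4_3315 (chr4:63025009-63026707, minus strand), 7062 bases further on, had 70.2, 76.6 and 64.1 RPKM in female and 12.7, 12.5 and 28.8 RPKM in male pools. Their log2 differences were 3.44 (SE 0.20, limma adjusted p 0.000128) and 2.07 (SE 0.32, limma adjusted p 0.00789). The first lies 717500 bases from the nearest left-out stretch. The other male unstranded libraries lay between the sexes for the first, at 17.3 RPKM in nuclear PCN and 16.9 RPKM in whole tissue, and at 30.0 and 39.7 RPKM for the other. In stranded RNA the first had no reads and the other 0.0458 to 0.127 RPKM.

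A pair on chromosome 11, 45635 bases apart, was also higher in females. ncRNA_as_chr11_9449 had 15.8, 6.23 and 4.34 RPKM in female and 2.07, 0.521 and 0.893 RPKM in male pools (log2 difference 2.79, SE 0.56, limma adjusted p 0.0232). ncRNA_as_chr11_9447 had 8.19, 3.88 and 4.02 RPKM in female and 1.41, 0.412 and 0.506 RPKM in male pools (log2 difference 2.73, SE 0.45, limma adjusted p 0.0112). In both, pool 1 was the highest of its sex, and both calls were lost without female pool 1 (limma adjusted p 0.0501 for ncRNA_as_chr11_9447). The call of ncRNA_as_chr11_9449 was also lost without female pool 2, male pool 2 or male pool 3 (limma adjusted p up to 0.0691 over all its fits). ncRNA_as_chr2_1207 had 3.44, 2.02 and 1.23 RPKM in female and 0.243, 0.0567 and 0.305 RPKM in male pools. ncRNA_as_chr6_5335 and ncRNA_as_chr3_2878 completed the 10 named, with log2 differences of 1.58 and 1.55 (limma adjusted p 0.0229 and 0.0299). The call of ncRNA_as_chr6_5335 was lost with pool number as a block and in 4 of the 6 fits that left out 1 pool (limma adjusted p up to 0.0984), and that of ncRNA_as_chr3_2878 with no filter and in 5 of those 6 (up to 0.106). ncRNA_as_chr3_2878 also had stranded reads, 1.28 and 0.567 RPKM at 6 h and 3 h after TCPOBOP and 1.30 and 0.652 RPKM at 6 h and 3 h after PCN. One call, ncRNA_as_chr4_3514, chosen for this after its values were seen, had no reads in any male pool, but its female levels of 0.123, 0.192 and 0.134 RPKM lie under 3 reads, so no fold is given.

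Among members lower in females, ncRNA_as_chr1_222 (chr1:58253539-58261131, minus strand) had 1.52, 1.63 and 2.13 RPKM in female and 14.7, 11.8 and 17.5 RPKM in male pools (log2 difference -2.99, SE 0.21, limma adjusted p 0.000287). ncRNA_as_chr1_221 (chr1:58193978-58195927, minus strand), 57611 bases away, had 2.09, 2.84 and 2.76 RPKM in female and 12.3, 14.7 and 15.7 RPKM in male pools (log2 difference -2.43, SE 0.18, limma adjusted p 0.000455). The pools of each sex lay close together in both. The other male libraries differed between these 2 members: nuclear PCN and whole tissue gave 2.97 and 2.16 RPKM of ncRNA_as_chr1_222, near the female level, and 15.4 and 31.3 RPKM of ncRNA_as_chr1_221, at or above the male level.

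ncRNA_as_chr6_5860 (chr6:149088509-149092627, minus strand) had 1.88, 2.29 and 1.91 RPKM in female and 20.8, 11.2 and 17.1 RPKM in male pools (log2 difference -2.91, SE 0.24, limma adjusted p 0.000657). It was at 10.2 RPKM in nuclear PCN and higher still in whole tissue, so all male unstranded libraries were above all female ones. By contrast, ncRNA_as_chr19_14823 (chr19:12770294-12793390, minus strand) had 0.175, 0.295 and 0.248 RPKM in female and 2.47, 1.61 and 3.63 RPKM in male pools, but 0.231 and 0.227 RPKM in nuclear PCN and whole tissue. ncRNA_as_chr15_12340 had 1.19, 1.23 and 2.80 RPKM in female and 12.5, 11.1 and 14.5 RPKM in male pools (log2 difference -2.90, limma adjusted p 0.00238).

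ncRNA_as_chr3_2800 had 0.0215, 0.0168 and 0.0235 RPKM in female and 1.05, 0.587 and 0.586 RPKM in male pools (log2 difference -2.76, SE 0.30, limma adjusted p 0.00239). Its values rest on few reads, 1 in each female pool and 21, 8 and 13 in the male pools. ncRNA_as_chr9_8142 (chr9:82994249-83023485, plus strand) had 0.642, 1.03 and 0.982 RPKM in female and 3.04, 3.36 and 3.14 RPKM in male pools (log2 difference -1.76, SE 0.21, limma adjusted p 0.0033). Both had reads in every stranded library, at 0.0853 to 0.355 RPKM for the first and 1.20 to 1.58 RPKM for the other. ncRNA_as_chr15_12507, ncRNA_as_chr7_5921 and ncRNA_as_chr3_2720 completed the 10 named, with log2 differences of -2.05, -1.99 and -1.80 (limma adjusted p 0.0243, 0.00266 and 0.00409). The call of ncRNA_as_chr15_12507 was lost with a pseudocount of 0.01 and without female pool 2, male pool 1 or male pool 3 (limma adjusted p up to 0.0744). Chromosome 15, chosen after its values were seen, held 10 of the 54 lower calls (18.5%, against 6.55% of all entries called lower) and 0 of the 31 higher ones; no test was made. Of those 10, 3 are neighbours at chr15:39582881-39593065, with a summed level of 1.35 ± 0.413 RPKM in female and 4.77 ± 0.469 RPKM in male pools (SD, n = 3 each).

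**Figure D3:**
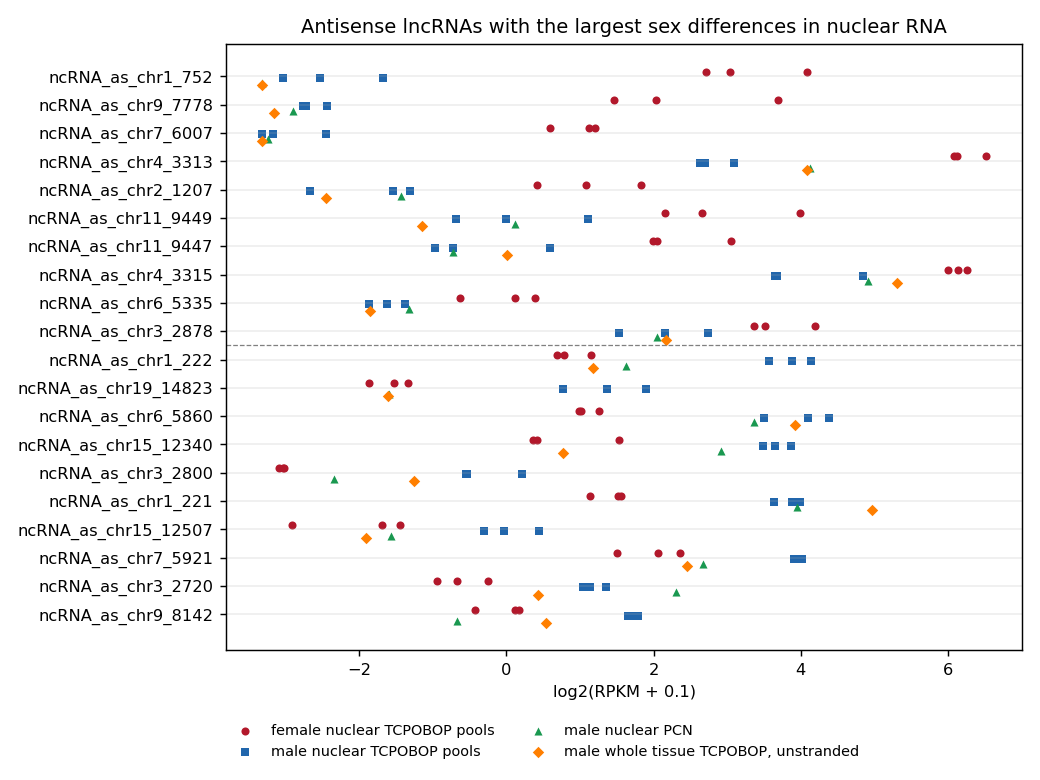
Levels, as log2(RPKM + 0.1), of the 10 members highest and the 10 lowest in females relative to males among the calls in nuclear RNA 3 h after TCPOBOP; circles are the 3 female pools, squares the 3 male pools, triangles the male nuclear PCN library and diamonds the unstranded male whole-tissue library. Female pools lie right of the male pools above the dashed line and left of them below it, and the 2 other male libraries lie near the male pools for some members and near the female pools for others, as for ncRNA_as_chr1_222 and ncRNA_as_chr19_14823.

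The 2 other unstranded libraries of male livers, nuclear PCN and whole-tissue TCPOBOP, come from the third experiment and entered neither side of the sex comparison. For 19 of the 31 members higher in females, both lay nearer the male mean, and for 3 both lay nearer the female mean. For the 54 members lower in females the counts were 9 and 38. Over all lncRNAs called, both lay nearer the male mean for 64.8% of 233 higher and 24.5% of 290 lower entries. For members the shares were 61.3% of those higher, close to that of all entries called higher, and 16.7% of those lower. How often both lay nearer the female mean was not counted over all entries, so the count of 38 is a description only. At least 0.1 RPKM in all 4 stranded libraries was found for 5 of the 31 (16.1%, against 10.7% of all entries called higher) and 14 of the 54 (25.9%, against 27.2% of all entries called lower).

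Nuclear and whole-tissue RNA after TCPOBOP, both male, unstranded and at 3 h, were compared as 3 nuclear pools against 1 whole-tissue library, assumed to vary like the pools. Of 1270 members tested, 288 differed (22.7%, background 9.91%; limma, adjusted p under 0.05 over 8000 entries). Higher levels in nuclear RNA were found for 268 (21.1%, background 6.61%) and lower levels for 20 (1.57%, background 3.3%). The median log2 difference was 0.58 for members and 0.35 for all entries; with library medians set equal these became 0.33 and 0.10, and the calls 192 higher and 28 lower. Without male pool 1 or 3 the count was 161 or 166. Compartment goes with experiment code and cannot be told apart from it. The nuclear PCN library, of the same code as the whole-tissue library, was also above it for 252 of the 268 (94.0%) and for 86.6% of all 529 entries called higher; the calls were chosen with whole tissue low, so these shares are partly set by the choice. Of the 268, 222 (82.8%) were under 0.1 RPKM in all 4 stranded libraries, as were 59.5% of all entries called higher, and 90 (33.6%, against 24.2%) had no stranded reads at all.

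ncRNA_as_chr3_2418 (chr3:67283320-67286552, plus strand) had 5.25, 3.94 and 8.81 RPKM in the nuclear pools and 0.232 RPKM in whole tissue (log2 difference 4.12, SE 0.53, limma adjusted p 0.0117). The nuclear PCN library had 0.982 RPKM and the female pools 4.76 to 8.72 RPKM, so each of the 7 nuclear libraries was above whole tissue. ncRNA_as_chr1_80 (chr1:13627663-13640885, plus strand) had 9.32, 6.69 and 6.90 RPKM in nuclear pools and 0.582 RPKM in whole tissue (log2 difference 3.49, SE 0.37, limma adjusted p 0.00785). ncRNA_as_chr6_5121 had 2.69, 1.72 and 2.40 RPKM against 0.1 RPKM (log2 difference 3.54, SE 0.38, limma adjusted p 0.00785). ncRNA_as_chr19_15060 reached 60.3, 33.9 and 24.1 RPKM against 2.16 RPKM, and ncRNA_as_chr17_13900 had 2.91, 1.76 and 1.98 RPKM against 0.0532 RPKM. The call of ncRNA_as_chr19_15060 was lost with no filter and without any 1 of the 3 male pools (limma adjusted p up to 0.0857). These members had 0.0161 RPKM or less in every stranded library. ncRNA_as_chr6_5250 was called as well (log2 difference 3.54), but lost its call without any 1 of the 3 male pools, and it reached 0.0783 RPKM in stranded RNA.

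Fewer members were lower in nuclear RNA. ncRNA_as_chr16_13353 (chr16:46153096-46155191, plus strand) had 0.519, 1.03 and 0.890 RPKM in nuclear pools and 18.6 RPKM in whole tissue (log2 difference -4.40, SE 0.37, limma adjusted p 0.00504). The nuclear PCN library, at 16.2 RPKM, was close to whole tissue, and the female pools, at 0.410 to 0.552 RPKM, were close to the male TCPOBOP pools. Among these 8 libraries the 2 of experiment code G81 were thus high and the other 6 low. ncRNA_as_chr7_6166, the highest in stranded whole tissue, had 36.3, 55.2 and 42.5 RPKM in nuclear pools and 125 RPKM in unstranded whole tissue (log2 difference -1.50, SE 0.30, limma adjusted p 0.0358), a call lost without male pool 1 or 3 (limma adjusted p up to 0.0794). ncRNA_as_chr1_347, ncRNA_as_chr1_871, ncRNA_as_chr10_9235 and ncRNA_as_chr5_4519 had log2 differences of -2.89, -1.99, -1.94 and -1.91. Of these 4, the first 3 lost their call without male pool 3, ncRNA_as_chr1_347 also with a pseudocount of 0.01 and ncRNA_as_chr1_871 also without male pool 1 or 2 (limma adjusted p up to 0.113, 0.0839 and 0.0506 for the 3 in order).

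**Figure D4:**
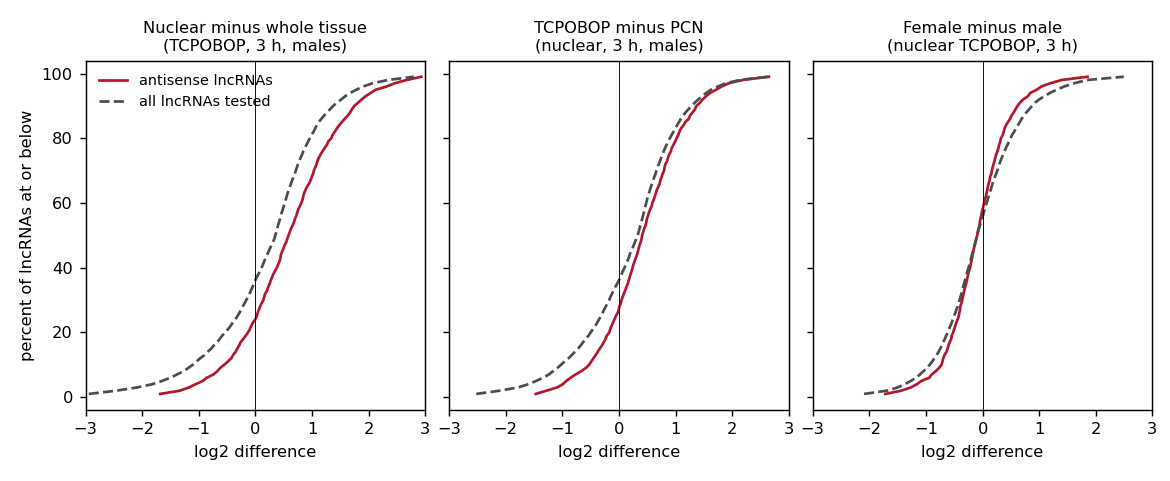
Cumulative share (vertical axis, percent) of antisense members (solid red) and of all lncRNAs tested (dashed grey) at or below each log2 difference (horizontal axis) in 3 comparisons of unstranded libraries. The solid line lies right of the dashed line for nuclear minus whole tissue, with medians of 0.58 and 0.35, less so for nuclear TCPOBOP minus PCN, with 0.41 and 0.33, and crosses it for female minus male, with -0.09 in both.

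Nuclear TCPOBOP RNA was set against the nuclear PCN library in the same fit, again 3 male pools against 1 library. Of 1267 members tested, 82 differed (6.47%, background 4.73%; limma, adjusted p under 0.05 over 8071 entries), 78 of them higher after TCPOBOP (6.16%, background 2.76%) and 4 lower (0.316%, background 1.97%). The median log2 difference was 0.41 for members and 0.33 for all entries, and 0.17 and 0.09 with library medians set equal, when 37 members were higher and 8 lower. Without male pool 1 or 3, 14 or 20 members were called. Agonist goes with experiment code and cannot be told apart from it. Unstranded whole-tissue TCPOBOP RNA of the same code as the PCN library lay above it for 24 of the 78 (30.8%), against 51.6% of all 223 entries called higher, and all 3 female pools did for 74 (94.9%), against 92.8%. These calls were chosen with the PCN library low, so the shares are partly set by the choice. The comparisons with PCN and with whole tissue share the 3 male pools.

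ncRNA_as_chr7_5999 (chr7:26693288-26995060, minus strand) had the lowest adjusted p. It had 9.69, 10.4 and 8.93 RPKM in the TCPOBOP pools and 0.988 RPKM in the PCN library (log2 difference 3.16, SE 0.14, limma adjusted p 0.0015). It was at 10.4 RPKM in whole tissue after TCPOBOP, about the level of the highest nuclear male pool, and at 19.6 to 19.9 RPKM in female TCPOBOP pools. All 7 unstranded TCPOBOP libraries, across 3 experiment codes, were therefore at least as high as 8.93 RPKM. Stranded RNA gave 0.00336 and 0.00546 RPKM (2 and 3 reads) at 6 h and 3 h after TCPOBOP and no reads after PCN. The unstranded reads may be of the member or of a gene on the other strand, which cannot be told apart. The member overlaps 2 table entries on the opposite strand and was counted over 21366 of its 301773 bases.

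ncRNA_as_chr10_9015 (chr10:75246884-75261214, plus strand) had 2.88, 4.17 and 3.85 RPKM after TCPOBOP and 0.314 RPKM after PCN (log2 difference 3.16, SE 0.25, limma adjusted p 0.00632). Whole tissue after TCPOBOP had 1.09 RPKM and the female pools 5.09 to 6.27 RPKM, all above the PCN library. ncRNA_as_chr6_5250 had 7.20, 5.78 and 6.54 RPKM against 0.321 RPKM (log2 difference 3.97, SE 0.68, limma adjusted p 0.0381) and ncRNA_as_chr15_12721 had 9.75, 5.07 and 7.90 RPKM against 0.714 RPKM (log2 difference 3.19, SE 0.45, limma adjusted p 0.0262). The call of ncRNA_as_chr6_5250 was lost without any 1 of the 3 male pools (limma adjusted p up to 0.0915) and that of ncRNA_as_chr15_12721 without male pool 1 or 3 (up to 0.0661). Whole tissue after TCPOBOP, at 0.466 and 0.650 RPKM, was near the PCN value for both. ncRNA_as_chr6_5590 and ncRNA_as_chr5_4157 had log2 differences of 3.44 and 3.05. Both lost their calls without male pool 3 (limma adjusted p up to 0.0907 and 0.0616), the first also without male pool 1, with a pseudocount of 1 and with no filter. ncRNA_as_chr6_5590 was counted over only 157 of its 196471 bases, with 17, 38 and 26 reads in the male pools and 5 after PCN. It overlaps 2 table entries on the opposite strand and 1 on the same strand. The 4 lower members were ncRNA_as_chr16_13353 (log2 difference -4.20, limma adjusted p 0.00704), ncRNA_as_chr5_4519 (-1.60), ncRNA_as_chr19_14779 (-1.46) and ncRNA_as_chr15_12687 (-0.92). The last 3 of these lost their calls without male pool 1 or 3 (limma adjusted p up to 0.076, 0.103 and 0.0924). Without male pool 2, ncRNA_as_chr5_4519 and ncRNA_as_chr15_12687 lost theirs too. With a pseudocount of 1, ncRNA_as_chr19_14779 and ncRNA_as_chr15_12687 did, and ncRNA_as_chr19_14779 also with no filter.

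Stranded whole-tissue RNA compares the agonists and the times with 1 library for each pair of agonist and time, so the agonist-by-time interaction was the error term with 1 residual degree of freedom. For TCPOBOP against PCN, 0 of 440 members passed limma's adjusted p of 0.05, as did 0% of all 2270 entries; the lowest adjusted p of a member was 0.591, and 17 members (3.86%, background 7.14%) had an unadjusted p under 0.05. No other tool was run on these 4 libraries. At least 2-fold higher levels after TCPOBOP at both times were found for 5 members (1.14%, background 1.94%) and at least 2-fold lower for 2 (0.455%, background 1.54%). The median log2 difference was 0.06 for members and 0.04 for all entries.

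Values for the members that went furthest are given without a call. ncRNA_as_chr7_6302 (chr7:87591545-87608643, plus strand) had 0.613 and 1.11 RPKM at 6 h and 3 h after TCPOBOP, and 0.261 and 0.151 RPKM at 6 h and 3 h after PCN (log2 difference 1.63, SE 0.45, limma adjusted p 0.666). ncRNA_as_chr7_5912 (chr7:13591691-13592354, plus strand) had 1.68 and 3.22 RPKM after TCPOBOP and 0.419 and 1.29 RPKM after PCN (log2 difference 1.52, SE 0.25, limma adjusted p 0.596), and no reads in any unstranded library. Both had higher values with TCPOBOP at each time. On the other side, ncRNA_as_chr16_13512 (chr16:93788097-93795122, minus strand) had 1.82 and 0.739 RPKM after TCPOBOP and 4.40 and 1.70 RPKM after PCN (log2 difference -1.17, SE 0.20, limma adjusted p 0.596). When only entries with a mean of at least 1 RPKM were tested, 2 of 66 members passed (3.03%, background 6.77% of 251): ncRNA_as_chr7_5912 (limma adjusted p 0.000346) and ncRNA_as_chr16_13512 (limma adjusted p 0.00354). The spread shared across entries was estimated anew in that fit, so these p-values rest on another estimate of error than those above.

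For 6 h against 3 h, which goes with the clock hour, again 0 of 440 members and 0% of 2270 entries passed, with 32 members (7.27%, background 12%) at an unadjusted p under 0.05 in limma. At least 2-fold higher levels at 6 h with both agonists were found for 6 members (1.36%, background 2.16%) and at least 2-fold lower for 11 (2.50%, background 3.83%). The median log2 difference was -0.16 for members and for all entries, and 0.00 for both with library medians set equal.

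ncRNA_as_chr18_14627 (chr18:67882975-67886225, plus strand) had 2.02 RPKM at 6 h and 0.455 RPKM at 3 h after TCPOBOP, and 3.61 RPKM at 6 h and 0.981 RPKM at 3 h after PCN (log2 difference 1.86, SE 0.21, limma adjusted p 0.328). ncRNA_as_chr16_13512 had 1.82 against 0.739 RPKM after TCPOBOP and 4.40 against 1.70 RPKM after PCN (log2 difference 1.26, limma adjusted p 0.328). Both had values more than 2-fold higher at 6 h with either agonist. In the opposite direction, ncRNA_as_chr16_13310 (chr16:42881895-42912250, minus strand) had 0.296 RPKM at 6 h and 0.893 RPKM at 3 h after TCPOBOP, and 0.304 RPKM at 6 h and 0.886 RPKM at 3 h after PCN (log2 difference -1.31, SE 0.23, limma adjusted p 0.333). ncRNA_as_chr18_14602 had 1.08 and 8.24 RPKM at 6 h and 3 h after TCPOBOP but 2.85 and 3.57 RPKM at 6 h and 3 h after PCN. Among entries with a mean of at least 1 RPKM, 5 of 66 members passed (7.58%, background 10.8% of 251): ncRNA_as_chr18_14627 (limma adjusted p 5.71e-06), ncRNA_as_chr18_14602, ncRNA_as_chr16_13512, ncRNA_as_chr7_5912 and ncRNA_as_chr19_14968. That fit estimated the spread shared across entries anew, so these passes do not rest on each member's own spread alone. For ncRNA_as_chr18_14602 the log2 difference was -2.82 with TCPOBOP but -0.32 with PCN (SE 0.77 in the main fit).

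**Figure D5:**
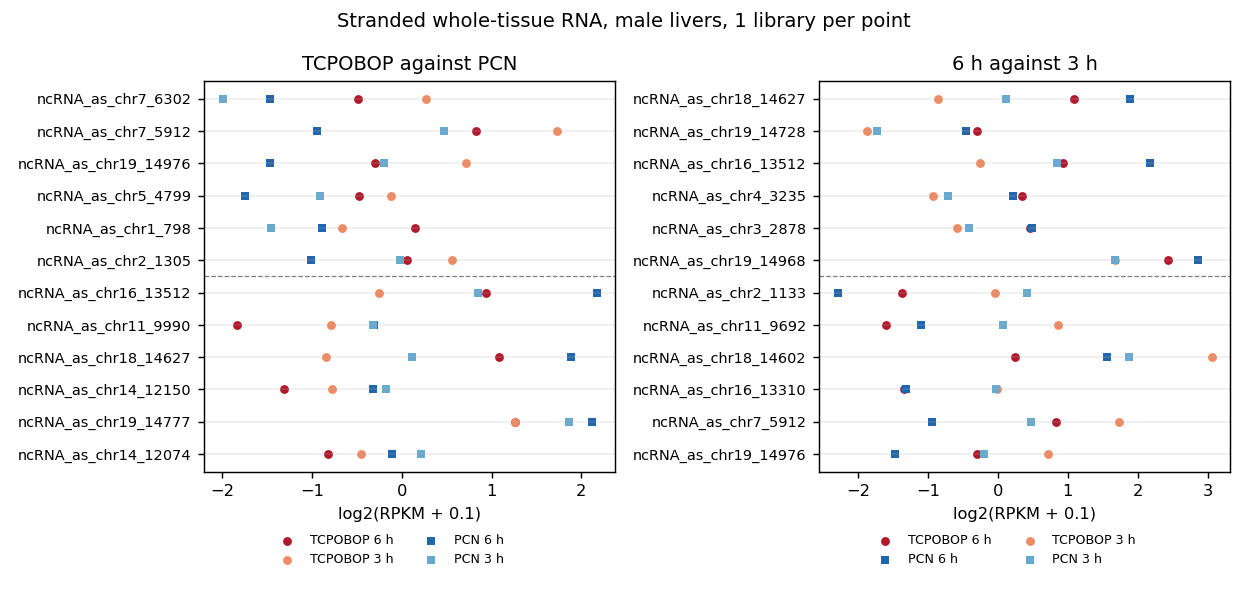
Levels, as log2(RPKM + 0.1), in the 4 stranded whole-tissue libraries of male livers of the members with the largest fitted differences between TCPOBOP and PCN (left) and between 6 h and 3 h (right); circles are TCPOBOP, squares PCN, dark points 6 h and light points 3 h, and each point is 1 library. Above the dashed line the first-named condition is higher in both pairs and below it lower, and none of these differences passed the test over all 2270 entries.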

How the data were processed

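Per the file headers, the authors deposited RPKM values per lncRNA, although the sheet is named FPKM. Reads were aligned with TopHat2 to build mm9, per the submitters' processing notes. How reads were counted, on which strand and with which annotation is not given in the sources used here. Of the value columns, 12 matched a library's labels and were used; 13 others were not. Library totals and counted lengths were solved from the RPKM steps. A length was accepted only if all values of an entry came out whole within 1e-06 reads. The span was taken where it fitted, and otherwise the smallest length that did. Such a length was found for all 12497 entries above 0, so that 100% of 89242 values came out whole is set by this choice. Intervals and floors from reads cover counting error only.

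Tests used limma 3.58.1 (R 4.3.3, trend) on log2(RPKM + 0.1), with Benjamini-Hochberg adjustment over all entries of at least 0.1 RPKM in 3 of 6 (sex), 2 of 4 (stranded) or 1 of 4 (nuclear contrasts) libraries. The fits were also run on simulated data with equal noise for every entry. That run does not cover low read counts, depth or experiment. A fold change on this scale understates the change of low lncRNAs. Nuclear contrasts were fitted over all 8 unstranded libraries with 4 residual degrees of freedom. P-values of the sex comparison measure spread between pools. In the nuclear contrasts the single library was assumed to have that spread, and in stranded RNA the agonist-by-time interaction took its place. Python 3.11.15, numpy 2.4.6, pandas 2.3.3 and matplotlib 3.10.9 did the rest.

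Named members were the 10 highest by stranded and 5 by unstranded mean; the 10 highest and lowest sex calls with non-overlapping pools and at least 0.5 RPKM on the higher side; the 6 highest and lowest of each other comparison, with the same minimum. The members, lists and tests were chosen with earlier results of these data known. Alternatives were pseudocounts of 0.01 and 1, no filter, a mean of at least 1 RPKM, library medians set equal, limma-voom on recovered reads, pool number as a block and leaving out each pool. The reference supplied is of another build, so no sequence was read.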

Additional observations from a re-analysis of the deposited data

How the results depend on the processing

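Limits first: sex, and compartment or agonist in nuclear RNA, go with experiment code; the unstranded libraries do not tell strands apart; male nuclear pools were the shallowest; single libraries were assumed to vary like the pools. In 3 comparisons the count of members called moved by more than 1.5 times under some setting, and the cause was not tested. For female against male nuclear RNA, 85 calls became 53 with no filter and 165 with limma-voom on recovered reads, and leaving out 1 pool gave 29 to 59. With pool number as a block the count was 42, but same-numbered pools did not deviate together (correlations -0.018, -0.074 and -0.00022), so the numbers do not pair the pools. For nuclear TCPOBOP against PCN, 82 calls became 134 and 53 with pseudocounts of 0.01 and 1, 191 with a mean of at least 1 RPKM, 45 with library medians set equal and 228 with limma-voom; leaving out 1 pool gave 14 to 82. For nuclear against whole tissue, 288 calls became 502 with limma-voom, and leaving out 1 pool gave 161 to 287. In stranded RNA, 0 calls became 2 (agonist) and 5 (time) with a mean of at least 1 RPKM. That setting tested fewer entries and also estimated the shared spread anew from them, so its p-values rest on another estimate of error. No library can be left out there. The median unstranded minus stranded difference, 2.80, became 4.33 and 0.93 with pseudocounts of 0.01 and 1, 1.58 with entries of at least 0.1 RPKM and 0.74 with the intergenic medians set equal. No named member reversed. Calls held in every alternative that tested the member for 15 of 20 named by sex, 3 of 10 by nuclear agonist and 6 of 12 by compartment. Members under a mean of 1 RPKM, such as ncRNA_as_chr3_2800 for sex, were not tested in that setting.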
